A study of Rattus norvegicus with 21 samples.

Results

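The antioxidant enzymes described here are the superoxide dismutases Sod1, Sod2 and Sod3, the peroxiredoxin Prdx5, catalase (Cat) and the glutathione peroxidase Gpx1. Their probes were taken by gene symbol, and the genes themselves were chosen with earlier results of these data known. Each of the 6 genes, of 4153 with a symbol on the array, had 1 probe among 5376, of which 4962 gave a value on at least 1 array. RNA of rat spinal cord had been hybridised to 21 arrays of 2 colours, each array pairing the RNA of a sample with a pool of RNA from cultured cord. There were 7 groups with 3 arrays each. The Uninjured group was cord taken straight after dissection, and the Injured 4 hr group was cord cultured for 4 hr, each culture kept separate. These cultures are taken here as controls treated with phosphate-buffered saline (PBS), although their titles name PBS for the pool alone. The other cultures, also of 4 hr, had received CKIN, MP, acetaminophen (Acet), indomethacin (Indo) or NS398, and the labels do not spell out CKIN or MP. Uninjured, Injured 4 hr, CKIN, MP and Acet arrays carried a pool of PBS cultures as reference, Indo arrays a pool of ethanol (ETOH) cultures and NS398 arrays a pool of DMSO cultures. The sources used here give no strain, age, sex or dose and do not say how many animals stand behind a culture. The p-values therefore cover the spread between the arrays alone, and that spread may be technical. The cultures stand for injury through dissection and culture, as far as the labels say, and not through a lesion in a living animal.

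Superoxide is a by-product of respiration and of oxidases, and the superoxide dismutases turn it into hydrogen peroxide and oxygen. Sod1 is the copper-zinc enzyme of the cytosol, Sod2 the manganese enzyme of the mitochondrial matrix, and Sod3 a secreted copper-zinc enzyme that binds to the extracellular matrix. Hydrogen peroxide is then removed by catalase in peroxisomes, by Gpx1 with glutathione as the reductant, and by peroxiredoxins such as Prdx5, which uses thioredoxin and is found in mitochondria, peroxisomes and the cytosol. In spinal cord, mutations of SOD1 are known from inherited motor neuron disease, and oxidative damage is a studied part of the secondary phase of cord injury.

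In the rat genome build GRCr8, RefSeq places Sod1 on chromosome 11 (42942742 to 42948399), Sod2 on chromosome 1 (50043323 to 50050168), Sod3 on chromosome 14 (62822865 to 62828602), Prdx5 on chromosome 1 (213529042 to 213532787), Cat on chromosome 3 (110297340 to 110329526) and Gpx1 on chromosome 8 (117905462 to 117906588). RefSeq's promoter sequences of that build matched 5 of the 6 genes. The promoter sequences of Sod1 and Sod2 are shown because these genes were called together in the same 2 treatment comparisons below. They were lower under CKIN and higher than the DMSO pool under NS398. Both were also called without a drug, in Injured 4 hr against the PBS pool, and shared regulation was not tested. Each line holds the 250 bases before the start site of the RefSeq table, 5′ to 3′ on the gene's strand. The Sod1 window is chr11:42942573-42942822 on the plus strand. Its part from base 42942742 on, which holds the marked TATA box, lies inside the annotated span of the gene. The Sod2 window is chr1:50050169-50050418 on the minus strand. Capitals mark matches on either strand to a GC box (GGGCGG), to a TATA box (TATAAA) and to the core of the antioxidant response element (TGACNNNGC), and no 2 marked matches overlap.
Sod1: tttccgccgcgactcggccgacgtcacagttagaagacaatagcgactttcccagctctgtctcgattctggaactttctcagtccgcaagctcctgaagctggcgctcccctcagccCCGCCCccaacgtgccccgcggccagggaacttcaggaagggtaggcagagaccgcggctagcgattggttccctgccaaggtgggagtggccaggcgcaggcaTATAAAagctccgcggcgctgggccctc
Sod2: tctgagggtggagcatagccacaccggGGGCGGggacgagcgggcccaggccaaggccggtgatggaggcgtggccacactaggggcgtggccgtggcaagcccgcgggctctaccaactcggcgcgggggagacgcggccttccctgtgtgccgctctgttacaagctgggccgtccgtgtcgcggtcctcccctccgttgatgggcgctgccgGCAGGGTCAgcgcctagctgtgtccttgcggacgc
Both windows held 1 GC box, which 30.5% of the 33469 rat promoter windows of this length hold. Sod1 also held 1 TATA box (12.9% of all windows), and Sod2 held 1 antioxidant response element core (10.1%). Of the other windows, Prdx5 and Gpx1 held 1 GC box each, and Cat held 4 CCAAT boxes (CCAAT, in 34% of all windows), of which Sod1 held 1. The Prdx5 window (chr1:213532028-213532277, minus strand) lies wholly inside the annotated span of the gene. The AP-1 motif TGANTCA (6.34% of all windows) was in none of the 5. A match describes the letters of the window and is not a measured binding site.

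The authors deposited a log2 ratio per probe and array, taken here as sample over pool from the order of the RNAs in the titles. That order is likely but not stated, so every direction below rests on it. These ratios had no common centre: the median of an array was -4.13 to -3.11 for fresh cord, -2.27 to -2.13 for Injured 4 hr and -1.63 to 0.69 for the treated cultures. Each array was therefore centred on its own median, and a centred ratio is the log2 ratio of a probe minus that of the median probe on the same array. The 10 arrays with more than 1100 missing spots are called sparse here, and they comprise every CKIN and every Indo array, 2 of MP, and 1 each of Acet and NS398. As a second scale, each array was also corrected for its trend against the mean centred ratio of the Injured 4 hr arrays and then centred per source plate. On these corrected ratios the Injured 4 hr mean lies near 0 by construction. Differences were tested with limma over all probes, and a probe was called at an adjusted p under 0.05.

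Sod3 and Prdx5 fell in the 4 hr cultures against fresh cord, by 2.17 and 2.51 on the log2 scale, while the other tested members were not called. Of the 5 members that could be tested, 2 were called, both lower. Over all probes, 14.3% of 4823 were called, 0.809% higher and 13.5% lower. In RNA of whole cord, fewer cells of a type and less RNA per cell cannot be told apart.

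Sod3 had centred ratios of 2.55, 2.58 and 2.11 on the Uninjured arrays and of 0.75, -0.03 and 0.01 on the Injured 4 hr arrays. The groups did not overlap, and the lowest fresh value lay well above the highest cultured one. The difference of -2.17 ± 0.34 (SE, n = 3 and 3) is a 4.49-fold fall, with a limma adjusted p of 0.000394. Only 1.43% of the tested probes had a lower change.

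Prdx5 had no value on the first Uninjured array and centred ratios of 3.92 and 3.18 on the others, against 1.12, 0.95 and 1.05 on the Injured 4 hr arrays. Again no cultured value reached a fresh one. The difference was -2.51 ± 0.42 (SE, n = 3 and 2), a 5.69-fold fall with a limma adjusted p of 0.000535, and 0.643% of the tested probes changed further down. On corrected ratios both genes were still called, Sod3 at -1.56 ± 0.30 (adjusted p = 0.00343) and Prdx5 at -1.45 ± 0.38 (adjusted p = 0.0259), where 7.24% of all probes were called and 4.85% were lower.

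Sod1, the cytosolic dismutase, had centred ratios of 3.41, 3.53 and 3.19 in Uninjured, against 2.18, 1.87 and 2.13 in Injured 4 hr. The arrays did not overlap, but the change of -1.32 ± 0.46 (SE, n = 3 and 3) missed the threshold, with a limma adjusted p of 0.0603. On corrected ratios it was -0.43 (adjusted p = 0.213). The SE rests on the spread in all 7 groups. Sod1 had an SD of 0.17 in Uninjured and 0.16 in Injured 4 hr, but 0.94 in MP. Sod2, its mitochondrial counterpart, had 2.39, 2.62 and 2.35 in Uninjured and 1.64, 1.75 and 1.25 in Injured 4 hr. Its change was -0.91 ± 0.46 (adjusted p = 0.202) and moved to 0.05 on corrected ratios, so no direction is given for Sod2. With the compared groups alone or with array weights, limma also called Sod1 and Sod2 lower and Gpx1 higher. The share of all probes called in those fits is not given here.

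Gpx1, the glutathione-dependent peroxidase, was the single tested member with a positive difference. Its centred ratios were -0.64, -1.38 and -1.10 in Uninjured and -0.22, -0.46 and 0.15 in Injured 4 hr, without overlap. The difference of 0.86 ± 0.38 (SE, n = 3 and 3) had a limma adjusted p of 0.139, and its 95% interval ran from 0.07 to 1.65. Without centring Gpx1 was the 1 member called, higher in culture at 2.39 (adjusted p = 0.00696). On that scale the array medians were higher in culture too, -2.27 to -2.13 in Injured 4 hr against -4.13 to -3.11 in Uninjured. The share of all probes called there is not given here. Catalase gave a value on 4 of the 21 arrays, none of them Uninjured, and was not tested. Its deposited ratios were 0, -4.57 and -3.36 on the Injured 4 hr arrays and 1.50 on the first Acet array, and the 3 cultures of 1 group thus lay far apart.

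**Figure D1:**
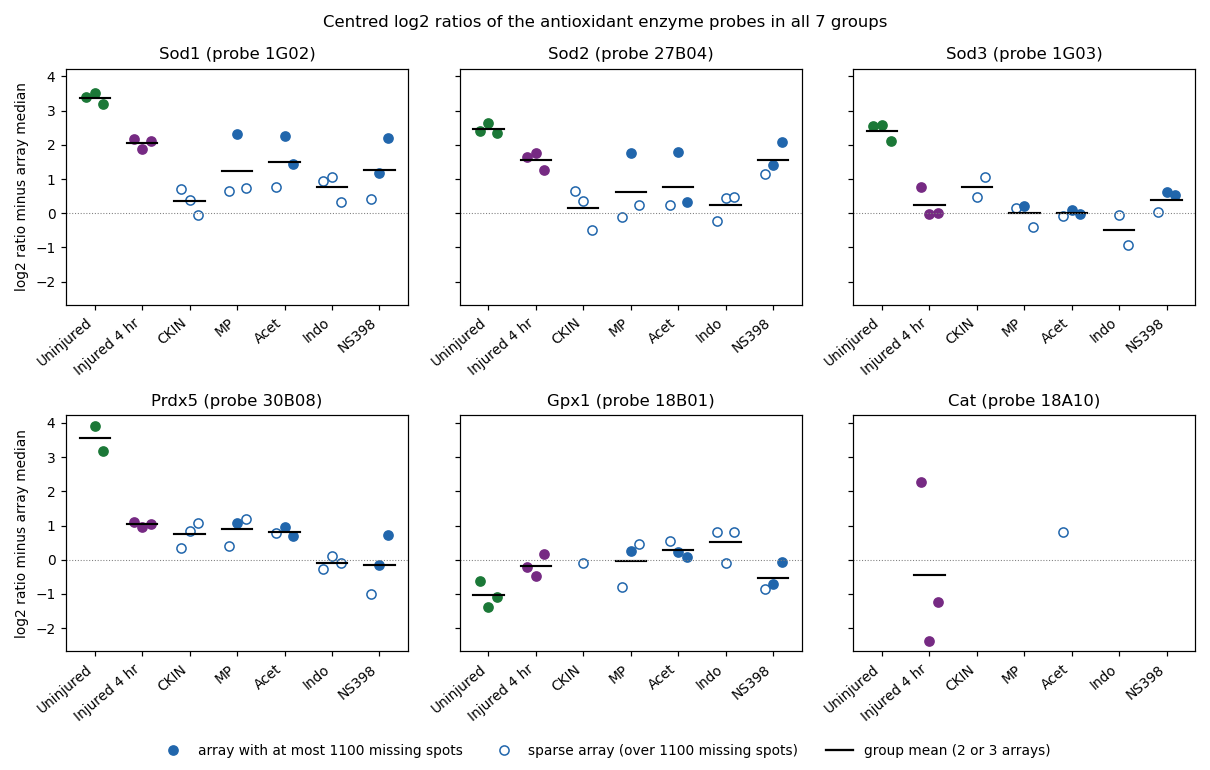
Centred log2 ratio (vertical axis) of each antioxidant enzyme probe on every array that gave a value, by group (horizontal axis), with open circles for sparse arrays and a bar for the mean of groups with at least 2 values. Sod1, Sod2, Sod3 and Prdx5 sit highest on the Uninjured arrays, and Sod1 and Sod2 spread widely within MP, Acet and NS398, where the sparse arrays are mostly the lower points.

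Fresh cord lay above not only the Injured 4 hr arrays but every cultured array for 4 members. Over the 18 cultured arrays, centred Sod1 ran from -0.04 to 2.31, with a median of 1.00, below the lowest fresh value of 3.19. Sod2 ran from -0.50 to 2.07 against a lowest fresh value of 2.35. Sod3 ran from -0.94 to 1.07 over 16 arrays with a value, and Prdx5 from -0.99 to 1.20, which left the widest gaps to fresh cord. Such separation was common on the array: 30.7% of 3377 probes lay higher on all fresh arrays. On corrected ratios Sod1, Sod3 and Prdx5 kept it, and 8.82% of the probes did, while Sod2 overlapped. On the deposited ratios no member lay higher on all fresh arrays and neither did any of the 3377 probes, while 56.1% of them lay lower.

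The fall of Sod3 and Prdx5 depended on how the arrays were put on 1 scale. Without centring, the Sod3 change was -0.64 (adjusted p = 0.298) and the Prdx5 change -1.09 (adjusted p = 0.0862), after quantile normalization they were -0.96 (adjusted p = 0.552) and -0.97 (adjusted p = 0.679), and after scaling the spread of the arrays -1.12 (adjusted p = 0.229) and -0.68 (adjusted p = 0.758). The sign was the same in each, but no call was left. Of all called probes, 5.65% were higher on centred ratios, 99.4% without centring, 70% after quantile normalization, 87.9% after scaling and 33% on corrected ratios. The SD of the centred ratios within an array was 1.39 to 1.47 in Uninjured and 0.77 to 0.80 in Injured 4 hr, and the part of this difference in spread in the results was not tested.

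**Figure D2:**
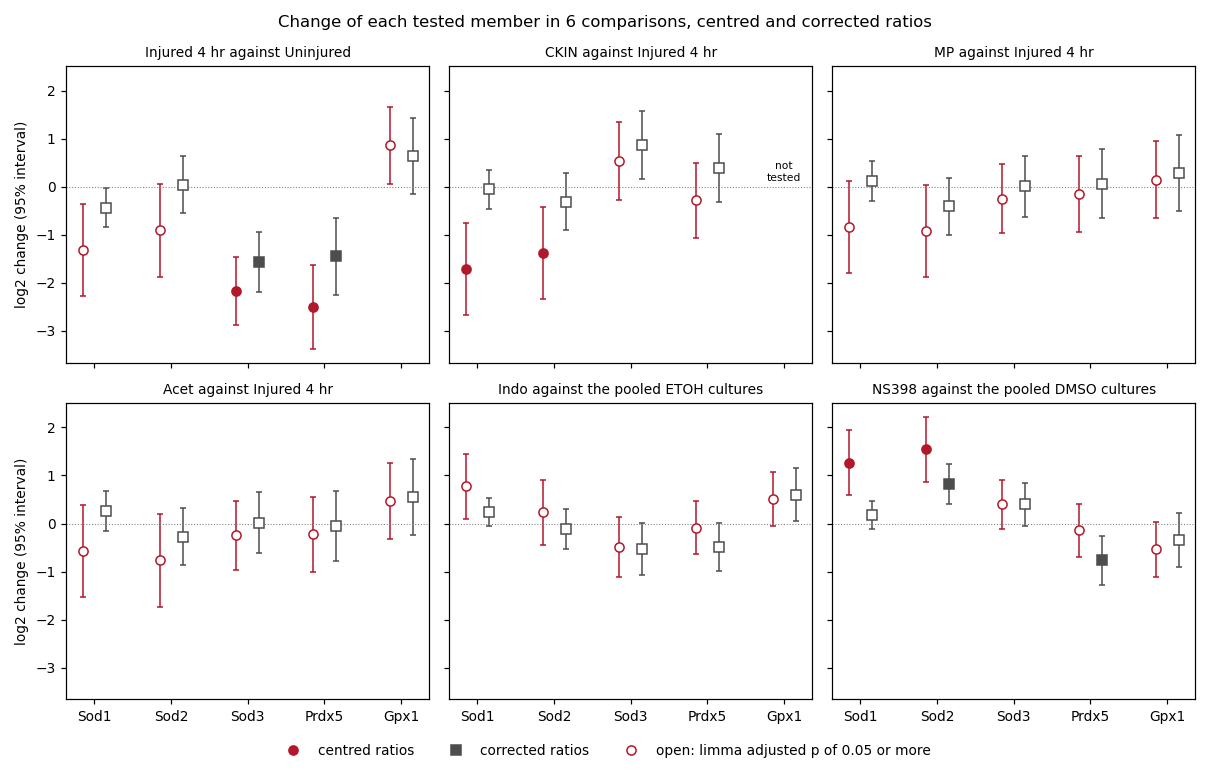
Log2 change of the tested members (vertical axis) with its 95% interval in 6 comparisons, 1 per panel, on centred ratios (circles) and corrected ratios (squares); filled symbols have a limma adjusted p under 0.05. Sod3 and Prdx5 are filled on both scales in the injury panel, and the filled Sod1 and Sod2 circles under CKIN have corrected values of -0.05 and -0.31 beside them.

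CKIN cultures had lower centred Sod1 and Sod2 than the Injured 4 hr cultures. Sod1 was 0.71, 0.38 and -0.04 on the CKIN arrays, below every Injured 4 hr array, a difference of -1.71 ± 0.46 (SE, n = 3 and 3) with a limma adjusted p of 0.0179. Sod2 was 0.65, 0.35 and -0.50, a difference of -1.38 ± 0.46 (SE, n = 3 and 3) with an adjusted p of 0.0401. These were 2 of 4 members tested, and 20% of 3737 probes were called, 18.6% lower. Sod3 (0.53, 2 CKIN arrays) and Prdx5 (-0.28) were not called, but without centring both were called higher, Sod3 at 2.32 (adjusted p = 0.00414) and Prdx5 at 1.64 (adjusted p = 0.00768). On that scale the array medians were higher too, -0.63 to 0 for CKIN against -2.27 to -2.13 for Injured 4 hr, and the share of all probes called is not given here. Gpx1 and Cat had too few CKIN values for a test. Of the cell type markers, 5 of 8 oligodendrocyte, 4 of 8 astrocyte, 2 of 6 microglia and macrophage, 1 of 10 neuronal and 1 of 5 fibroblast and meningeal probes were also called lower under CKIN, and none was on corrected ratios. Their part in the Sod1 and Sod2 differences was not tested.

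Both CKIN calls were lost on corrected ratios, with a block and without centring, whereas Sod1 was still called after quantile normalization and both were after scaling. On corrected ratios Sod1 was -0.05 (adjusted p = 0.944) and Sod2 -0.31 (adjusted p = 0.681), and 0.642% of the probes were called. With sparse and other arrays as a block the differences were -0.37 (adjusted p = 0.802) and -0.34 (adjusted p = 0.858), and without centring they were 0.22 and 0.54. All 3 CKIN arrays were sparse and no Injured 4 hr array was. Leaving out 1 array at a time, Sod1 was no longer called without CKIN replicate 3 (adjusted p = 0.0612) or without Injured 4 hr replicate 1 (0.0604) or 3 (0.0626), and Sod2 was no longer called without CKIN replicate 3 (0.161) or any 1 Injured 4 hr replicate (0.0743 to 0.115).

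Within the treated groups, centred Sod1 and Sod2 followed the sparse arrays. Over the 10 sparse arrays Sod1 ran from -0.04 to 1.06 (median 0.68), and over the 5 other treated arrays from 1.18 to 2.31 (median 2.20), without overlap. Gapdh, a glycolytic enzyme spotted 51 times on the array, split the same way, from 0.27 to 1.20 and from 1.39 to 2.62. Sod2 overlapped, with -0.50 to 1.15 on sparse arrays and 0.32 to 2.07 on the others. On corrected ratios the Sod1 ranges overlapped, -0.12 to 0.38 and 0.12 to 0.30. The part of the missing spots in these results was not tested.

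**Figure D3:**
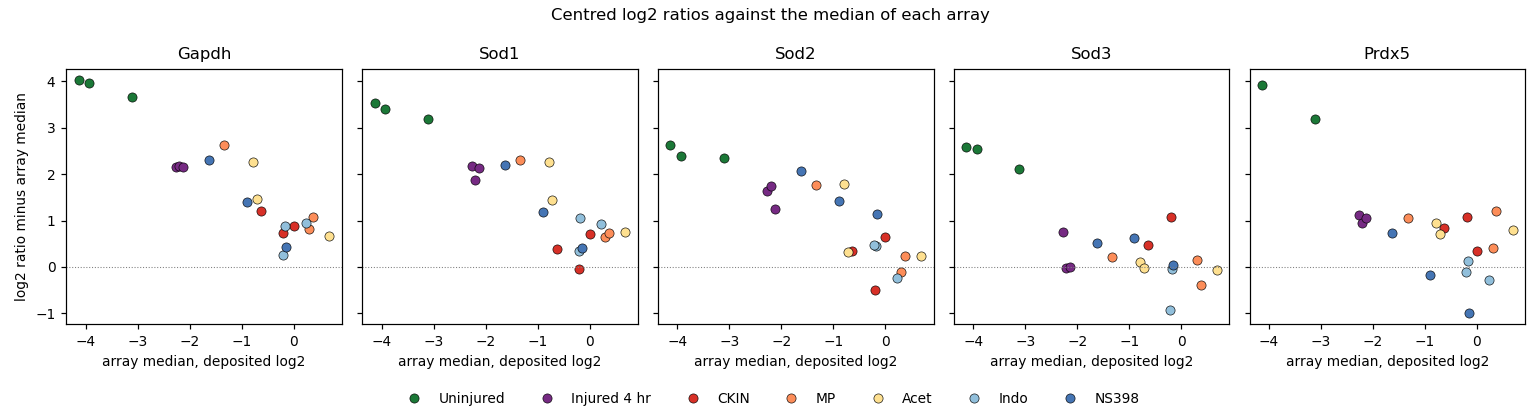
Centred log2 ratio (vertical axis) of Gapdh, Sod1, Sod2, Sod3 and Prdx5 against the median deposited log2 ratio of the array (horizontal axis), 1 point per array, coloured by group. Gapdh, Sod1 and Sod2 lie lower on arrays with a higher median, while Sod3 and Prdx5 stand high on the Uninjured arrays and show less order among the cultured ones.

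No member was called under MP or Acet, and 0 of the 5 tested had an unadjusted limma p under 0.05 in either comparison. Over all probes, 770 of 4392 under MP and 635 of 4735 under Acet had such a p. MP had Sod1 at 0.64, 2.31 and 0.73 and Sod2 at -0.11, 1.76 and 0.24, and the high value of each was on the 1 MP array that was not sparse. Against Injured 4 hr the MP differences were -0.83 for Sod1 (95% interval -1.79 to 0.13), -0.92 for Sod2 (-1.88 to 0.04), -0.25 for Sod3 (-0.97 to 0.47), -0.15 for Prdx5 (-0.93 to 0.63) and 0.15 for Gpx1 (-0.65 to 0.95). The limma adjusted p ranged from 0.302 for Sod2 upward, with 2.05% of 4392 probes called. Without the second MP array, Sod1 (-1.37, adjusted p = 0.0411) and Sod2 (-1.48, adjusted p = 0.0260) were called. Acet had Sod1 at 0.75, 2.27 and 1.45 and Sod2 at 0.23, 1.79 and 0.32. Its differences ran from -0.77 for Sod2 (95% interval -1.73 to 0.19) to 0.47 for Gpx1 (-0.33 to 1.26), none called, where 1.31% of 4735 probes were. Without centring, all 5 tested members were called in both comparisons, each of them higher than in Injured 4 hr. On that scale the arrays as a whole lay higher. Their medians were -1.34 to 0.37 for MP and -0.79 to 0.69 for Acet, against -2.27 to -2.13 for Injured 4 hr. The share of all probes called without centring is not given here, so these calls are not read as a result about the members. The MP intervals include both changes called under CKIN, and the Acet interval includes the one of Sod2.

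No member was called between the drugs that shared the PBS pool. Of the members tested, 0 of 4 were called for CKIN against MP, 0 of 4 for CKIN against Acet and 0 of 5 for MP against Acet. Limma called 0, 6 and 1 probes in these comparisons, of 3634, 3751 and 4380, which is 0%, 0.16% and 0.0228%. An unadjusted limma p under 0.05 was found for 0, 1 and 0 members, and for 552, 655 and 275 of all probes. Sod1 was the member nearest the threshold, at -1.14 ± 0.46 in CKIN against Acet (SE, n = 3 and 3, limma adjusted p = 0.222).

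Indomethacin blocks both cyclooxygenases and NS398 is selective for the inducible one, and each was measured against its own solvent pool. Such a ratio is tested against 0, so the spread of the control cultures does not enter. The Injured 4 hr arrays, which set PBS cultures against a PBS pool, show how far a centred ratio lay from 0 without a drug: there Sod1 stood at 2.06, Sod2 at 1.55 and Prdx5 at 1.04, the 3 members called of 6, and 22.1% of 4866 probes were called, 21% higher. Ratios of Indo and NS398 below are thus levels against a pool, and their distance from 0 is no measure of the drug alone.

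Under Indo none of the 5 tested members was called by limma, where 13.3% of 3804 probes were called. An unadjusted limma p under 0.05 was found for 1 member, Sod1, and for 984 of the 3804 probes. Sod1 was 0.93, 1.06 and 0.34 (mean 0.78 ± 0.33 SE, adjusted p = 0.126). Gpx1 was 0.80, -0.09 and 0.81 (mean 0.51, adjusted p = 0.250), and Sod3 was -0.04 and -0.94 on the 2 arrays that measured it. All Indo arrays were sparse.

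NS398 arrays had Sod2 at 1.15, 1.42 and 2.07 and Sod1 at 0.41, 1.18 and 2.20, above the DMSO pool on each array. The means of 1.55 ± 0.33 for Sod2 (adjusted p = 0.00209) and 1.27 ± 0.33 for Sod1 (adjusted p = 0.00911; SE, n = 3) were called, 2 of 5 members, where 22% of 4487 probes were called and 10.7% were higher. On corrected ratios Sod2 was still called, at 0.94, 0.73 and 0.78 (mean 0.82 ± 0.20, adjusted p = 0.0112), Sod1 was not (0.17, adjusted p = 0.469), and Prdx5 was called lower, at -1.49, -0.61 and -0.21 (mean -0.77 ± 0.24, adjusted p = 0.0437), where 13.1% of probes were called. No Sod2 value of another cultured group reached the 3 corrected NS398 values, the highest being 0.26 on an Injured 4 hr array. The other groups carried PBS or ETOH pools, so drug and pool cannot be told apart here. The corrected Injured 4 hr mean also lies near 0 by construction. Sod2 was not called on deposited ratios (0.65, adjusted p = 0.0891) or after quantile normalization (0.61, adjusted p = 0.0747). Sod1 lost its call without NS398 replicate 3 (0.80, adjusted p = 0.152). Cell type markers were also called in this comparison: 3 of 7 fibroblast and meningeal and 2 of 4 Schwann cell probes were higher on both scales, 3 of 4 blood and granulocyte, 2 of 8 astrocyte and 2 of 8 oligodendrocyte probes were higher on centred ratios alone, and 5 of 10 neuronal and 2 of 8 astrocyte probes were lower on corrected ratios. Their part in the member values was not tested.

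Between NS398 and Indo, limma called no member, where 0.435% of 3682 probes were called. An unadjusted limma p under 0.05 was found for 3 members and for 407 of the 3682 probes. The Sod2 difference was 1.31 ± 0.46 (SE, n = 3 and 3, limma adjusted p = 0.253), higher on every NS398 array than on any Indo array. The pools differ as well as the drugs in this comparison, and their parts cannot be told apart. Gpx1 went the other way, -1.05 ± 0.38 (adjusted p = 0.276), with 1 of the 3 NS398 arrays inside the Indo range.

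The enzymes that supply or neighbour the members were read from 4 lists with 76 probes tested after injury: glutathione enzymes, thioredoxin system and peroxiredoxins, inducible, haem and metal genes, and oxidant-producing enzymes. Of these, 1 was called higher and 17 lower, 22.4% lower beside 13.5% of all probes. On corrected ratios 3 were higher and 4 lower, beside 2.38% and 4.85% of all probes. Without centring the split was 29 higher and 0 lower, after quantile normalization 0 and 0, and after scaling 2 and 0. The median of all tested probes changed by 1.47 without centring, and relative to that shift the lists' median of 0.84 is lower.

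On centred ratios 6 of 19 glutathione probes fell and none rose. They were Gclm (-1.72), the modifier subunit of the enzyme that starts glutathione synthesis, Gsto1 (-1.62), Gstm1 (-1.54), Gstm5 (-1.47) and Mgst1 (-1.38), which are glutathione transferases, and Gpx3 (-1.46), the plasma glutathione peroxidase. The median of the list was -0.42, beside -0.04 over all probes. None of the 6 was called on corrected ratios. In the thioredoxin list 5 of 16 fell: the mitochondrial thioredoxin Txn2 (-1.71), the disulfide isomerases Pdia3 (-1.68) and Pdia4 (-1.28), the mitochondrial peroxiredoxin Prdx3 (-1.35) and the glutaredoxin Glrx3 (-1.12). The list median was -1.10, and again no probe was called on corrected ratios. Unlike Prdx3, the peroxiredoxins Prdx1 (-1.22, limma adjusted p = 0.163), Prdx2 (-1.28, adjusted p = 0.0683) and Prdx4 (-0.42, adjusted p = 0.556) were not called.

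Haem oxygenase Hmox1, the inducible enzyme that degrades haem, was the 1 list probe that rose. Its centred ratios were -0.0039 and -0.22 on the 2 Uninjured arrays with a value and 1.95, 2.33 and 1.58 on the Injured 4 hr arrays. The change of 2.06 ± 0.65 (SE, n = 3 and 2) had an adjusted p of 0.0373. On corrected ratios it was 2.63 (adjusted p = 0.00267) and without centring 3.39 (adjusted p = 0.00130), and it kept its sign but not its call after quantile normalization (2.01, adjusted p = 0.309). The constitutive Hmox2 went down (-2.08, adjusted p = 0.000438; corrected -0.99, adjusted p = 0.0470). Both probes of Sqstm1, an adaptor of selective autophagy, were lower (-2.08 and -1.34; corrected -1.30 and -1.59, all called), and Atox1, a copper chaperone, fell by 1.43. Of 27 probes in this list, 1 was higher and 4 lower, and 2 probes of the metallothionein Mt1 were called higher on corrected ratios alone (1.49 and 1.22). Among 14 oxidant-producing enzymes, D-amino acid oxidase Dao (-1.80; corrected -2.15, adjusted p = 0.00250) and monoamine oxidase Maob (-1.27; corrected -0.19) fell.

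**Figure D4:**
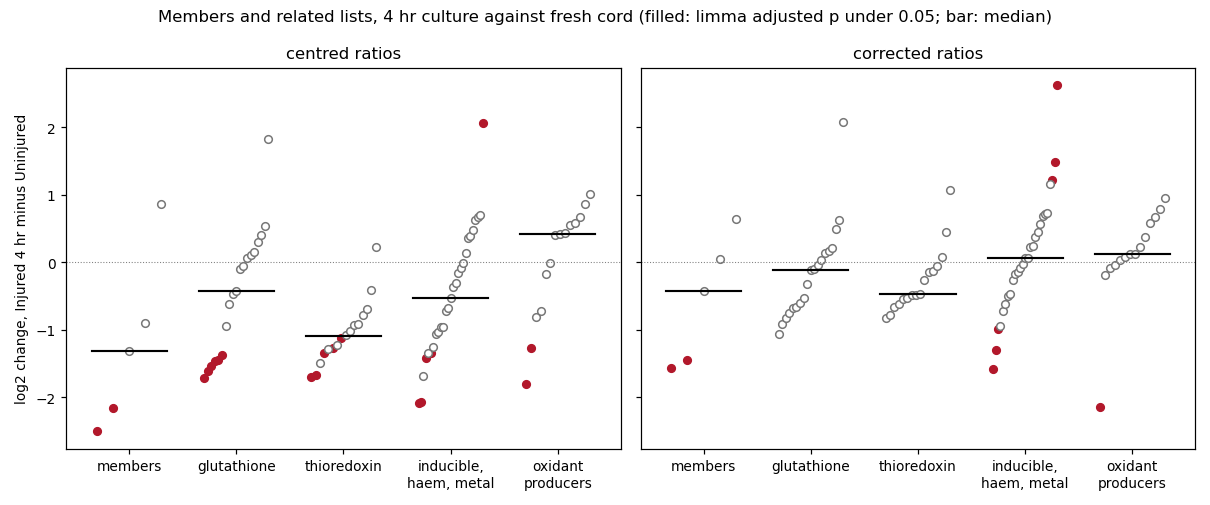
Log2 change between the 4 hr cultures and fresh cord (vertical axis) for the tested members and the probes of 4 related lists (horizontal axis), on centred ratios at left and corrected ratios at right; filled points have a limma adjusted p under 0.05 and bars are medians. The 2 filled members stay low on both scales, the filled glutathione and thioredoxin points are open at right, and Hmox1 is the highest filled point in both panels.

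Under CKIN, 22 of 64 list probes were lower and 1 higher on centred ratios, beside 18.6% and 1.47% of all probes, and limma called 0 on corrected ratios. By list, 3 of 14 glutathione probes were lower (Gstm1 at -2.01, Gsr at -1.55, Gstm5 at -1.41), 4 of 16 thioredoxin probes (among them Selenop at -2.50, Prdx1 at -1.69 and Prdx2 at -1.49), 12 of 24 inducible and metal probes (among them Hmox1 at -2.53, an Mt1 probe at -2.08 and the ferritin chain Ftl1 at -1.98) and 3 of 10 oxidant producers (among them Aox1 at -1.64 and Maoa at -1.29), where Acox3 was higher (1.37). Without centring 21 were higher and 0 lower, on a scale where the medians of the CKIN arrays also lay above those of Injured 4 hr. Under MP and Acet, limma called 0 of 72 and 0 of 76 list probes, and 11 and 7 had an unadjusted p under 0.05. Over all probes, 770 of 4392 and 635 of 4735 had such a p.

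Under Indo, 4 of 65 list probes were called lower and 1 higher, beside 10.7% and 2.6% of all probes. The lower calls were all among the 16 glutathione probes, led by Gstp1 (-2.11), Gsta2 (-1.50) and Gstm1 (-1.13), and the higher call was Txnrd1 (1.23), the cytosolic thioredoxin reductase. On corrected ratios Gstm1 was still called (-1.01, adjusted p = 0.00846), while Gstp1 (-0.83, adjusted p = 0.235), Gsta2 (-0.90, adjusted p = 0.0998) and Txnrd1 (0.83, adjusted p = 0.196) were not. The other calls on that scale were 3 inducible and metal genes, all lower: Ftl1 (-0.61), Mt3 (-0.87) and Tf (-0.71). Of all probes, 6.34% were called lower and 3.38% higher on corrected ratios, so the lower calls in the lists were near the share over all probes. Under NS398, 12 of 75 list probes were called higher and 8 lower, which is near the 10.7% and 11.3% of all probes called in those directions. On corrected ratios 4 were higher and 8 lower, beside 5.1% and 8.03% of all probes. Hmox1 stood at 2.54, 1.95 and 3.22 on the NS398 arrays (mean 2.57, adjusted p = 0.000204; corrected 1.57, adjusted p = 0.00327). In the thioredoxin system, Txnrd1 (1.95) and Txn1 (1.63), thioredoxin itself, were higher and Glrx (-1.14) lower, and the 3 were called on corrected ratios too. Metallothionein Mt1 was higher at 1.95 and 1.61 on its 2 leading probes, but neither was called on corrected ratios (0.58, adjusted p = 0.0913, and 0.69, adjusted p = 0.0527). Gstp1 (-1.96), Gpx6 (-1.06) and Gpx3 (-0.81) were lower, and of these Gpx3 alone was called on corrected ratios (-0.98, adjusted p = 0.0233). The oxidant producers Hao2 (-2.45) and Dao (-1.39) were lower and Maob (1.22) higher, and Dao was not called on corrected ratios (-0.97, adjusted p = 0.0630). Between NS398 and Indo limma called 0 of 64 list probes, and 7 had an unadjusted p under 0.05, as had 407 of all 3682 probes.

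Markers of cord cell types moved in the injury comparison beside Sod3 and Prdx5. Of 10 neuronal probes tested, 6 were lower on centred and 6 on corrected ratios, and of 8 astrocyte probes 4 and 2 were, beside 13.5% and 4.85% of all probes. The mean centred ratio of the 8 neuronal probes measured on all 6 arrays ran from 3.39 to 3.90 in Uninjured and from 1.59 to 1.67 in Injured 4 hr. For 6 astrocyte probes it ran from 3.26 to 3.62 and from 1.47 to 1.74. Of 8 oligodendrocyte probes 1 was lower, and the means of 7 ran from 2.75 to 3.03 and from 1.73 to 1.85. Microglia and macrophage (7 probes, 2 higher on corrected ratios), fibroblast and meningeal (7), endothelial (5, 1 higher on corrected ratios), blood and granulocyte (5) and Schwann cell (4) probes had no call on centred ratios. Neuronal, astrocyte and oligodendrocyte markers were all measured in fresh cord, as the labelled tissue implies. The part of cell types in the change of Sod3 and Prdx5 was not tested.

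Likeness over all arrays was described by correlation of centred ratios. The probe with the highest Pearson correlation to Sod3, over 19 arrays, was Gpr37l1 (r = 0.92), followed by Sirpa (0.90) and Adap1 (0.89). For Prdx5 the leading probes were Camk2n2 (0.94, 18 arrays), Eno2 (0.93, 20 arrays) and Camk2g (0.92, 20 arrays). Sod1 followed Cox8a, Pebp1 and Tuba1a (0.98 each), and Sod2 followed Rpl38, B2m and Cd63 (0.96, 0.96 and 0.95). Gpx1 reached 0.73 at most, with Pcyt2. On corrected ratios the correlation was 0.88 for Sod3 with Gpr37l1 and 0.85 for Prdx5 with Camk2n2, and 0.55 for Sod1 with Cox8a. Among the members themselves, Sod1 and Sod2 had r = 0.89 over 21 arrays on centred ratios and 0.05 on corrected ratios, whereas Sod3 and Prdx5 had 0.80 and 0.62 over 18 arrays, and Sod3 and Gpx1 -0.74 and -0.65. These correlations describe arrays that share pools, groups and the trend with the array median, and the separation of fresh from cultured cord enters all of them.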

How the data were processed

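RNA of rat spinal cord was compared with pooled culture RNA on 21 arrays of 2 colours. The deposited values are log2 ratios that were not normalized between arrays, as their medians show. Base 2 was inferred, since exact logarithms of small whole-number ratios recur. These were 8.08% to 13.2% of the values on the treated arrays, but 0.32% to 1.19% on Uninjured and Injured 4 hr arrays. That difference coincides with treatment in every comparison of a drug with Injured 4 hr, and its part in the results was not tested. The sources used here name no scanner, dye order, background correction or array processing. Probe symbols came from the platform annotation, updated by gene identifier (4375 probes), and 4423 probes had 1 symbol; 547 measured probes had none and stayed in the fit. The 51 Gapdh control spots were averaged to 1 value. Each array was centred on its median. Corrected ratios subtract from each array a loess curve (span 0.4) on the mean centred ratio of the Injured 4 hr arrays, then the median of each source plate with at least 20 probes. All 21 arrays entered 1 fit by group (limma 3.58.1, R 4.3.3, lmFit and eBayes), a probe being tested with at least 2 arrays in each group compared, and p-values were Benjamini-Hochberg adjusted over all probes tested. The number of arrays limits the precision. The fit was tested on simulated data.

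Alternatives were other scalings (deposited ratios, quantile, scale, corrected), other filters, array weights, blocks for sparse arrays and replicate number, the compared groups alone, the PBS pool as control, probes averaged per gene, and each array left out. Leaving out the sparse arrays was chosen after seeing the data. Every member probe was named; of the lists, called probes with the largest change were named, up to 6 per list after injury and up to 3 per list elsewhere, and the 3 probes most alike each member. Additional list probes (Prdx1, Prdx2 and Prdx4 after injury, Mt1 on corrected ratios) were named after their values were seen. The members, lists and trend correction were chosen with earlier results of these data known.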

Additional observations from a re-analysis of the deposited data

How the results depend on the processing

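Sod3 and Prdx5 were lower in the 4 hr cultures than in fresh cord under each of their alternatives and lost the call under 3 scalings, with the values given above. Of 565 values of a member under an alternative, 444 had the same sign and the same side of the threshold, 35 gained a call, 25 lost one and 61 changed sign; the cause was not tested.

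Signs changed as follows. On deposited ratios without centring, Sod1 was 0.21 and Sod2 0.62 after injury; under CKIN Sod1 was 0.22, Sod2 0.54 and Prdx5 1.64; under MP Sod1 was 1.15, Sod2 1.06, Sod3 1.73 and Prdx5 1.83; under Acet Sod1 was 1.36, Sod2 1.16, Sod3 1.69 and Prdx5 1.70; Sod3 was -0.49 under NS398, and Sod1 was -0.35 in NS398 against Indo. After quantile normalization, Sod1 was 0.0024 and Sod2 0.14 after injury, Prdx5 was 0.11 under CKIN, 0.060 under MP and 0.025 under Acet, Gpx1 was -0.24 and Sod2 -0.69 under Indo, and Sod3 was -0.62 under NS398. After scale normalization, Sod1 was 0.76 and Sod2 0.63 after injury. On corrected ratios, Sod2 was 0.046 after injury, Prdx5 was 0.39 under CKIN, Sod1 was 0.12, Sod3 0.0068 and Prdx5 0.063 under MP, Sod1 was 0.25 and Sod3 0.014 under Acet, Sod2 was -0.11 under Indo, and Sod1 was -0.072 in NS398 against Indo. With sparse arrays as a block, Prdx5 was 0.24 under CKIN, 0.20 under MP and 0.17 under Indo, Sod1 was 0.059 under MP and -0.40 in NS398 against Indo. Against the pooled PBS cultures in place of Injured 4 hr, Sod1 was 0.35, Sod2 0.17 and Prdx5 0.76 under CKIN, Sod1 was 1.23, Sod2 0.63, Prdx5 0.89 and Gpx1 -0.027 under MP, and Sod1 was 1.49, Sod2 0.78 and Prdx5 0.81 under Acet. Without the sparse arrays, an alternative chosen after seeing the data, Sod1 was 0.25, Sod2 0.21 and Prdx5 0.022 under MP, and Prdx5 was 0.28 under NS398. Leaving out 1 array at a time, Gpx1 ran from -0.092 to 0.54, Prdx5 from -0.30 to 0.089 and Sod3 from -0.39 to 0.0062 under MP, Sod3 from -0.38 to 0.011 under Acet, and Prdx5 from -0.19 to 0.0070 under Indo, from -0.58 to 0.28 under NS398 and from -0.49 to 0.37 in NS398 against Indo.

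The number of members called depended on the setting. Except on corrected ratios, the share of all probes called under these settings is not given here, so the counts are not read as results about the members. The number called after injury, 2 in the report, was 1 without centring and 0 after quantile and scale normalization. It was 5, all that were tested, with array weights and with the compared groups alone. When values on all 3 arrays were required it was 1, since Prdx5 then had no test. Under CKIN it was 0 on corrected ratios, with sparse arrays as a block and against the PBS pool, and 1 after quantile normalization. Under MP it was 5 without centring and 2 after scaling, with array weights and against the PBS pool, and the same held for Acet. Under Indo it was 3 after quantile normalization and 1 after scaling, with array weights and with sparse arrays as a block. Under NS398 it was 4 with array weights and 1 with NS398 arrays alone. In Injured 4 hr against the PBS pool it was 0 on corrected ratios, which holds by construction and is no test. Array weights called 1 member in CKIN against Acet, 1 in MP against Acet and 2 in NS398 against Indo. Leaving out 1 array, the number ran from 1 to 2 after injury, 0 to 2 under CKIN, 0 to 2 under MP and 1 to 2 under NS398. Over all probes, the calls in these fits ran from 354 to 493, 205 to 549, 3 to 598 and 481 to 962. After injury 1 member was called without Uninjured replicate 2 or 3, when Prdx5 could not be tested.

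The replicate numbers did not pair the arrays: over 63 pairs of arrays with the same number, deviations from the group means correlated from -0.332 to 0.604, 9 pairs were over 0.1, and 7 of 21 arrays correlated best with their own number. With the replicate number as a block, 2 members were called after injury (Sod3 at -2.17, Prdx5 at -2.35), 2 under CKIN and 2 under NS398, and the block changed no call of a member.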
